A study of Hydra vulgaris with 36 samples.

Results

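ctnnb1 encodes beta-catenin and is described here in 36 libraries of Hydra tentacles. It is 1 of the 22608 genes in the deposited count table, in the row named '100192284', and was chosen by that identifier, not by its values. Beta-catenin has a pair of roles in animal cells. At the cell membrane it links cadherins to the actin cytoskeleton. In the Wnt pathway it enters the nucleus and activates target genes together with TCF transcription factors. Without a Wnt signal, a destruction complex that holds axin, APC and the kinase GSK3 marks the protein for degradation. RNA counts therefore give the amount of its transcript and say nothing of its protein or of where the protein sits. In Hydra, Wnt and beta-catenin signalling is known for its part in the head organizer at the apical tip. Sp5 is known there as a repressor of Wnt3, and Zic4 as a transcription factor of the tentacle.

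The animals were Hydra vulgaris of strain Hm_105, given as wild type in the labels, so every group shared that genotype. RNA interference (RNAi) lowers a transcript with small interfering RNA (siRNA), here delivered by electroporation at 1.35 micromolar to 20 to 30 animals per treatment. Animals were electroporated 3 times and tentacles were collected 7 days after the last round. The first set of 25 libraries held the distal and the proximal part of original tentacles, meaning those at the normal position, with 4 libraries of each part after mock RNAi, 4 of each after Zic4 RNAi and 3 of each after Sp5 RNAi. It also held ectopic tentacles, which grow elsewhere on the body, after Sp5 RNAi (n = 3). The second set of 11 libraries held undivided original tentacles after mock RNAi (n = 3) and Zic4/Sp5 RNAi (n = 4), and ectopic tentacles after Zic4/Sp5 RNAi (n = 4). Corresponding tissue was pooled for each library. The labels do not say that libraries came from separate cultures. The p-values set each difference against the spread between libraries, part of which may be technical.

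Library totals ran from 2039364 to 13276051 counts. The tentacle genes Alx, a homeobox gene, and annexin XII, a marker of battery cells, had counts in every library. No gene name matched Zic4 or Sp5, and their knockdown was not analysed here. Mock proximal libraries differed from most others. Their 10 most abundant genes took 17.2% to 23.1% of all counts, against 9.24% to 17.7% in the other 32 libraries. The 17.7% was in mock distal replicate 4. Their scaling factors (0.545 to 0.790) were low, and that of Sp5 RNAi proximal replicate 1 was 0.748. Each comparison with mock proximal parts rests on these 4 libraries.

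ctnnb1 was detected in every library, with 201 to 6505 counts. The counting error alone was 7.05% at the lowest count and 1.24% at the highest, which is small beside the spread between replicates described next. PCR copies are not separate molecules, and these percentages cover counting error only. Levels are given as CPM, the count brought to a common library size, with library sizes scaled by the trimmed mean of M-values (TMM). The lowest level was 143 CPM in a mock proximal library and the highest 765 CPM in a Zic4 RNAi distal library, a 5.37-fold range, with a median of 345 CPM over the 36 libraries.

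In mock tentacles ctnnb1 had 375, 493, 729 and 230 CPM in distal replicates 1 to 4 (456 ± 211, SD, n = 4). In mock proximal parts it had 171, 187, 143 and 342 CPM (211 ± 89.8, SD, n = 4). Distal replicate 4 lay within the proximal range, and proximal replicate 4 within the distal range. After Zic4 RNAi the distal values were 765, 348, 523 and 585 CPM (555 ± 172, SD, n = 4). The proximal values were 328, 410, 364 and 324 CPM (357 ± 39.9, SD, n = 4), the tightest of the groups of 4 libraries. One Zic4 RNAi distal library therefore lay among the proximal ones and the rest above them.

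After Sp5 RNAi the distal values were 603, 579 and 457 CPM (547 ± 78.4, SD, n = 3). The proximal values were 260, 319 and 556 CPM (378 ± 157, SD, n = 3), so that proximal replicate 3 reached the distal range. Ectopic tentacles of these animals had 329, 295 and 370 CPM (331 ± 37.8, SD, n = 3). They lay below every Sp5 RNAi distal library and within the Sp5 RNAi proximal range.

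In the set of undivided tentacles, mock libraries had 247, 333 and 223 CPM (268 ± 57.8, SD, n = 3). Original tentacles after Zic4/Sp5 RNAi had 521, 349, 276 and 341 CPM (372 ± 105, SD, n = 4). Ectopic tentacles after Zic4/Sp5 RNAi had 357, 211, 376 and 340 CPM (321 ± 74.9, SD, n = 4). All 3 groups overlapped. The mock mean lay between the means of mock proximal and mock distal parts, which were prepared in the other set and were not compared with it by a test.

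**Figure D1:**
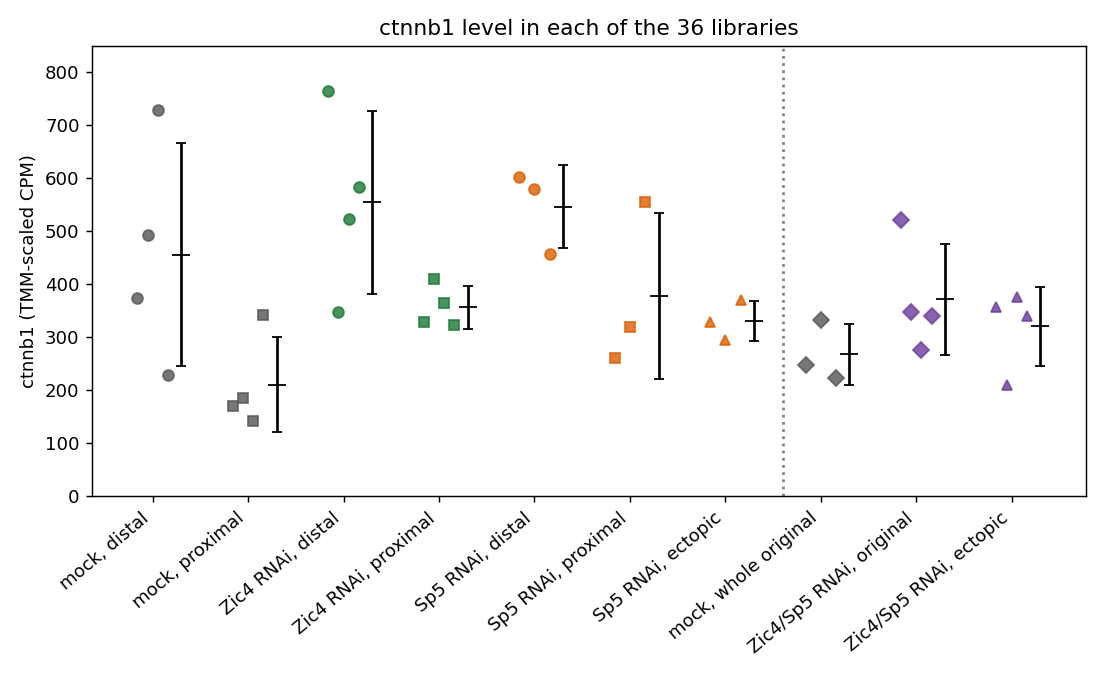
Level of ctnnb1 in TMM-scaled CPM (y axis) in each library, by group (x axis), with the mean ± SD beside the points. The dotted line separates the sets of divided and undivided tentacles. Mock proximal parts hold the lowest mean, 211 CPM, and Zic4 RNAi distal parts the highest, 555 CPM.

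Ordered by mean, the 10 groups ran from Zic4 RNAi distal (555 CPM), Sp5 RNAi distal (547 CPM) and mock distal (456 CPM) through Sp5 RNAi proximal (378 CPM), Zic4/Sp5 RNAi original (372 CPM), Zic4 RNAi proximal (357 CPM), Sp5 RNAi ectopic (331 CPM) and Zic4/Sp5 RNAi ectopic (321 CPM) to mock undivided (268 CPM) and mock proximal (211 CPM). The 3 distal groups thus had the 3 highest means. In all 9 pairs of neighbours in this order the ranges overlapped, which is not a test of a difference. Of the 45 pairs of groups, 7 had ranges that did not overlap. These were Sp5 RNAi distal against Zic4 RNAi proximal, Sp5 RNAi ectopic, Zic4/Sp5 RNAi ectopic, mock undivided and mock proximal parts, and Zic4 RNAi distal against mock undivided and mock proximal parts. The pairs with mock undivided and Zic4/Sp5 RNAi ectopic tentacles cross the sets, and set and group cannot be told apart in them. Such a count was not made for other genes, so the 7 pairs are a description. The highest group mean was 2.64 times the lowest.

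ctnnb1 was tested in 16 comparisons with edgeR's quasi-likelihood test, and p-values were adjusted by Benjamini and Hochberg over all genes tested in the set. It passed an adjusted p of 0.05 in 1 comparison, that of distal with proximal parts of mock tentacles. Its transcript was 2.03-fold higher in distal parts (log2 fold change 1.02, standard error 0.31, 95% interval 1.30-fold to 3.17-fold, edgeR adjusted p 0.0153). The same threshold called 29.5% of all genes in this comparison, so that the call itself is a common one here. The call was lost without mock distal replicate 3 (log2 fold change 0.73, adjusted p 0.0912) and without mock proximal replicate 3 (0.89, adjusted p 0.0559), as well as in a fit of these 8 libraries alone (1.04, adjusted p 0.0772). In the main fit all groups of the set shared 1 estimate of the spread per gene. The SD of ctnnb1 was 46.2% of the mean in mock distal and 42.6% in mock proximal parts, the widest of the 10 groups.

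Library complexity moved with this difference. In mock distal parts the lowest ctnnb1 level (230 CPM) was in the library with the highest share of counts in its 10 most abundant genes (17.7%), and the highest level (729 CPM) in the one with the lowest share (13.2%). In mock proximal parts the corresponding libraries had 143 CPM at 23.1% and 342 CPM at 17.2%. In Sp5 RNAi proximal parts they had 260 CPM at 16.2% and 556 CPM at 13.4%. In the other 7 groups the extremes of both measures did not pair in this way. With that share as a covariate, the log2 fold change between mock distal and proximal parts was 0.19 (adjusted p 0.839). Over all 14332 genes the covariate left 520 called in this comparison, against 4221 without it, so the loss is not particular to ctnnb1. Since the share also separates mock proximal parts from most other libraries, position and complexity cannot be told apart in these groups. The lowest ctnnb1 level was in the library with the lowest total in every mock group. This also held in Sp5 RNAi distal, Sp5 RNAi ectopic and Zic4 RNAi proximal groups, but not in the others. The lowest totals were 2039364 in mock distal and 2391331 in mock proximal parts. The highest mock proximal level was in the library with the highest total (8789109), and the highest mock distal level was not. The part of library totals in the ctnnb1 difference was not tested.

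**Figure D2:**
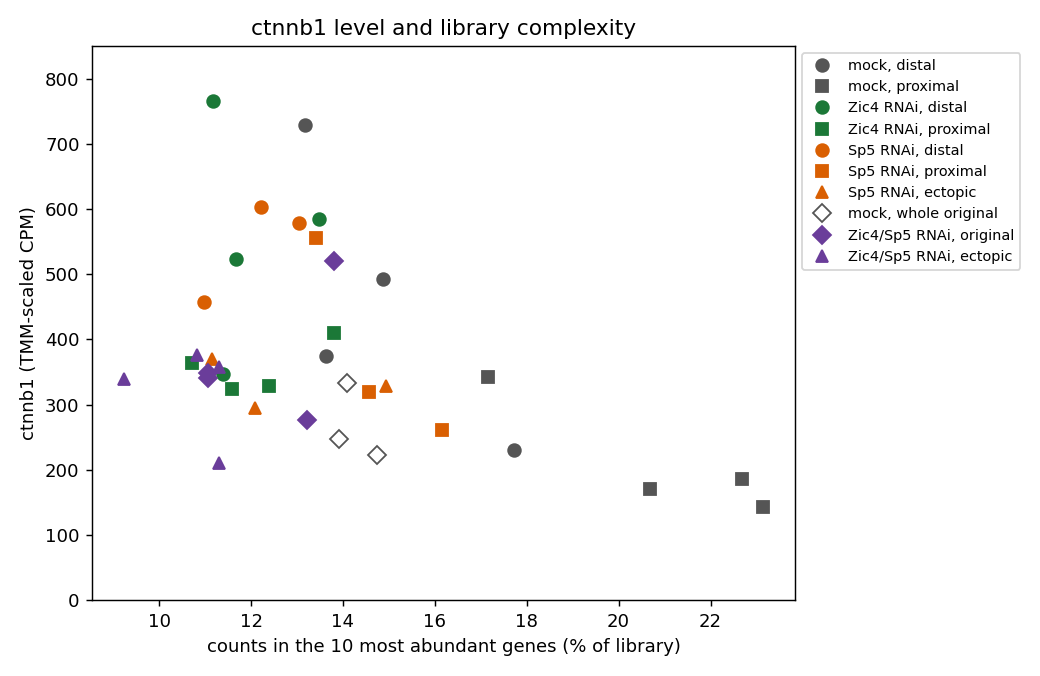
ctnnb1 in TMM-scaled CPM (y axis) against the percentage of counts in the 10 most abundant genes (x axis), 1 point per library, coloured by treatment and shaped by tissue. The mock proximal libraries lie at 17.2% to 23.1% with 143 to 342 CPM, and the 8 libraries above 500 CPM lie at 11.2% to 13.8%.

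Markers of other cells moved with the same comparison. Of the gland cell markers kazal1 and kazal4, which encode Kazal-type protease inhibitors, kazal1 was lower in mock distal parts (edgeR adjusted p 0.00155) and kazal4 was not called. Their summed level was 1.15 to 4.17 CPM in mock distal and 13.6 to 312 CPM in mock proximal parts, and kazal4 was at 0 in 5 of the 8 libraries. Both tentacle markers were lower in distal parts, with adjusted p 0.0105 for Alx and 0.00284 for annexin XII, and their sum was 2051 to 7732 CPM in distal and 7152 to 17232 CPM in proximal parts. None of the 3 nematocyte markers (nowa and a pair of nematogalectins) was called, nor were CnNK-2, a homeobox gene of the basal disk, and piwil1, a piwi gene of interstitial cells. The part of these cells in the ctnnb1 difference was not tested. In bulk tissue, fewer cells of a type and less RNA per cell cannot be told apart.

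**Figure D3:**
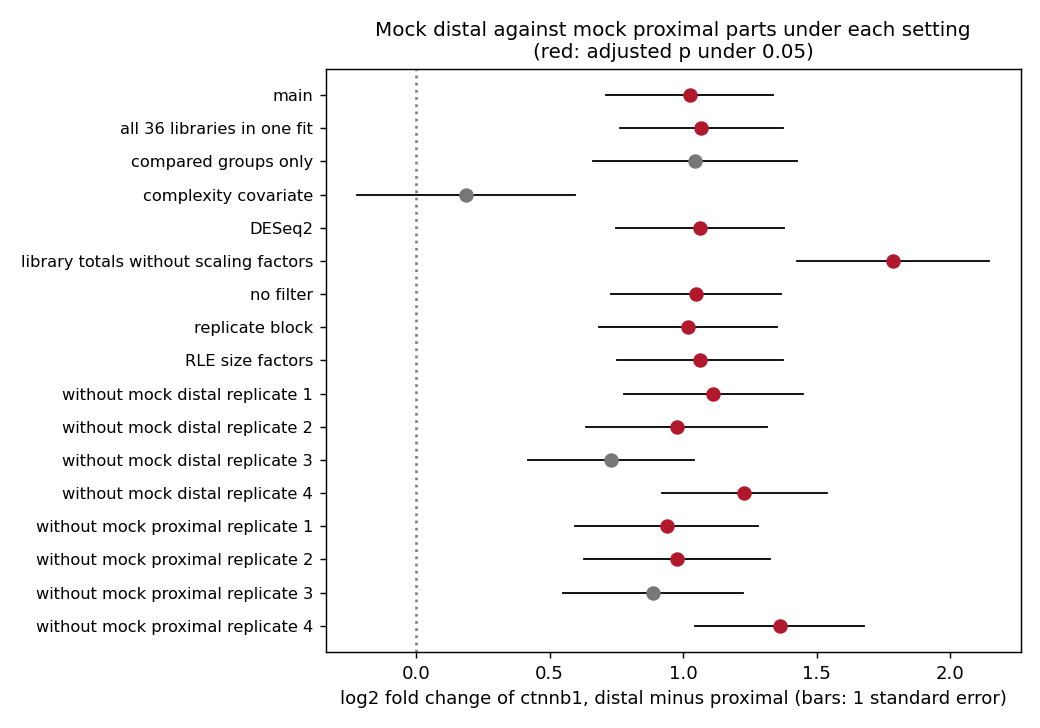
log2 fold change of ctnnb1 between mock distal and mock proximal parts (x axis, bars of 1 standard error) under the main setting, 8 other settings and without each of the 8 libraries (y axis). The estimate stayed above 0 in each, from 0.19 with the complexity covariate to 1.79 without scaling factors, and lost its call in 4 of them.

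The comparisons of RNAi with mock ask whether the beta-catenin transcript depends on Zic4 or Sp5. In distal parts its estimated level after Zic4 RNAi was 1.20 times that of mock (log2 fold change 0.26, standard error 0.31, 95% interval 0.771 to 1.86 times, edgeR adjusted p 0.767), where 3.64% of all genes were called. After Sp5 RNAi it was also 1.20 times that of mock (0.26, standard error 0.33, 95% interval 0.749 to 1.93 times, edgeR adjusted p 0.753), where 2.29% were called. Both comparisons use the same 4 mock libraries. At this spread between libraries no difference was detectable in distal parts.

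In proximal parts the estimates were larger but did not pass the threshold. After Zic4 RNAi ctnnb1 was at 1.61 times the mock level (log2 fold change 0.68, standard error 0.31, 95% interval 1.03 to 2.501 times, unadjusted p 0.0366, edgeR adjusted p 0.0902), where 33.3% of all genes were called. After Sp5 RNAi it was at 1.74 times the mock level (0.80, standard error 0.33, 95% interval 1.08 to 2.79 times, unadjusted p 0.0237, edgeR adjusted p 0.153), where 6.68% were called. The groups overlapped in both, through mock proximal replicate 4 at 342 CPM. Without that library both passed, at a log2 fold change of 1.02 (adjusted p 0.0122) after Zic4 RNAi and 1.14 (adjusted p 0.0319) after Sp5 RNAi. It had the highest total of the mock proximal libraries (8789109) and the lowest share in the 10 most abundant genes (17.2%). Over all fits without 1 library, the lowest log2 fold changes were 0.51 and 0.42, and the highest adjusted p (edgeR) 0.256 and 0.657. With the complexity covariate the estimates turned negative, at -0.46 (adjusted p 0.730) and -0.041 (adjusted p 0.979). Over all genes that covariate left 10 called after Zic4 RNAi, against 4766 without it, and 71 after Sp5 RNAi, against 958.

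Scaling bears on these values. Without TMM factors the log2 fold changes were 1.48 after Zic4 RNAi (adjusted p 0.00163) and 1.34 after Sp5 RNAi (adjusted p 0.0182) in proximal parts, and 1.79 between mock distal and proximal parts. The median gene then moved too, by 0.81, 0.53 and 0.77 on the log2 scale. Relative to that median ctnnb1 was at 0.67, 0.81 and 1.01, close to the scaled values.

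**Figure D4:**
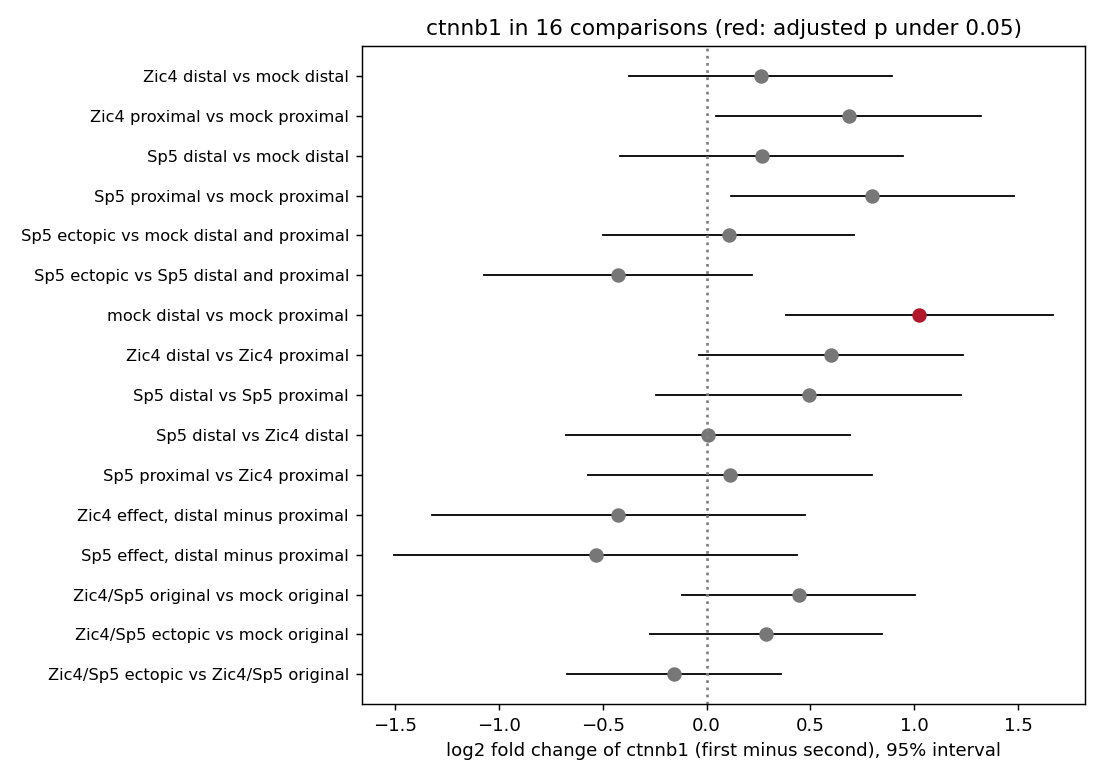
log2 fold change of ctnnb1 with its 95% interval (x axis) in the 16 comparisons (y axis), with the comparison past the threshold in red. Apart from mock distal against mock proximal parts (1.02), only the intervals of Zic4 RNAi and Sp5 RNAi against mock in proximal parts exclude 0, and these did not pass the adjustment over all genes.

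The distal and proximal parts of RNAi tentacles were compared to ask whether the difference seen in mock tentacles was also present there. After Zic4 RNAi ctnnb1 was 1.52 times as high in distal as in proximal parts (log2 fold change 0.60, standard error 0.31, 95% interval 0.975 to 2.36 times, edgeR adjusted p 0.256), where 5.76% of all genes were called. After Sp5 RNAi it was 1.41 times as high (0.49, standard error 0.36, 95% interval 0.845 to 2.34 times, edgeR adjusted p 0.325), where 22.7% were called. The difference between these steps and the mock step was tested as an interaction. It was -0.42 on the log2 scale for Zic4 RNAi (95% interval -1.32 to 0.47, edgeR adjusted p 0.646, 3.80% of genes called). For Sp5 RNAi it was -0.53 (95% interval -1.50 to 0.44, edgeR adjusted p 0.755, 0.0140% of genes called). The mock step was thus not shown to differ from that after either treatment.

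Between treatments, Sp5 RNAi and Zic4 RNAi distal parts differed by 0.0051 on the log2 scale (95% interval -0.68 to 0.69, edgeR adjusted p 0.998, 0.314% of genes called). Proximal parts differed by 0.11 (95% interval -0.57 to 0.80, edgeR adjusted p 0.870, 3.67% of genes called). As ratios the intervals ran from 0.625 to 1.61 times and from 0.673 to 1.74 times.

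Many transcripts differed in ectopic tentacles, and ctnnb1 was not among those called. Ectopic tentacles were compared with the average of the log2 levels fitted to distal and proximal parts. By that measure Sp5 RNAi ectopic tentacles were at 1.08 times the mock parts (log2 fold change 0.11, standard error 0.29, 95% interval 0.708 to 1.64 times, edgeR adjusted p 0.811), while 35.7% of all genes were called. The plain means were 331 CPM in ectopic tentacles and 333 CPM over the 8 mock libraries, so the sign of this small difference depends on how the parts are averaged. Against the Sp5 RNAi original parts, averaged in the same way, they were at 0.745 times the level (-0.42, standard error 0.31, 95% interval 0.476 to 1.17 times, edgeR adjusted p 0.353), while 27.3% were called.

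After Zic4/Sp5 RNAi ctnnb1 was likewise not called. Original tentacles had 1.36 times the mock level of ctnnb1 (log2 fold change 0.44, standard error 0.25, 95% interval 0.921 to 2.01 times, edgeR adjusted p 0.325, 4.39% of genes called). Ectopic tentacles had 1.22 times the mock level (0.28, standard error 0.25, 95% interval 0.826 to 1.79 times, edgeR adjusted p 0.419), while 30.0% of all genes were called. The ectopic and original tentacles of these animals differed by -0.16 (95% interval -0.67 to 0.36, edgeR adjusted p 0.719), in a fit without replicate numbers. In that last comparison 0 genes were called by edgeR, with 3032 at an unadjusted p under 0.05, and 1255 were called by DESeq2. The 0 rested on 1 library, since edgeR called 2037 genes without Zic4/Sp5 RNAi original replicate 4, and on the fit, since 904 were called with all 36 libraries in it.

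By edgeR's estimate, the spread of ctnnb1 between replicates was near that of the median gene in the divided set and below it in the undivided set. Its biological coefficient of variation was 31.7% in the divided set, where the median over all genes tested was 33.7%, and 28.4% in the undivided set, where the median was 34.1%. The trend at the abundance of ctnnb1 was 34.0% and 39.0%. These estimates are drawn toward that trend, so closeness to other genes is partly built in.

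Other genes of the Wnt pathway were matched by symbol or synonym. The lists held 15 such genes, namely 11 Wnt ligands, the receptor hyfzd5/8, the kinase GSK3 and the brachyury genes Bra1 and Bra2. Axin, APC, dishevelled, LRP5/6, TCF, the secreted inhibitors and the cadherin and catenin partners were not matched and are not analysed here. Of the 15 genes, 10 were tested in the divided set and 14 in the undivided set. The lists were chosen with results of these data known, and their counts are descriptions.

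In mock tentacles 1 of the 10 tested genes was higher and 2 were lower in distal than in proximal parts, beside 15.9% and 13.6% of all genes. The median log2 fold change of the 10 genes was -0.07, against 0.03 over all genes. The ligand gene hywnt5a had 247 to 391 CPM in mock distal and 75.1 to 150 CPM in mock proximal parts, with no overlap (log2 fold change 1.51, standard error 0.24, edgeR adjusted p 0.000117). It was also higher in distal parts after Zic4 RNAi (1.64, adjusted p 0.000582) and Sp5 RNAi (1.56, adjusted p 0.000703), and none of these 3 calls was lost in any alternative. Wnt3a, the ligand gene LOC100203050, had 2.31 to 9.90 CPM in mock distal and 7.23 to 25.4 CPM in mock proximal parts (-2.08, edgeR adjusted p 0.00730), a call lost with the complexity covariate (adjusted p 0.196) and without scaling factors. The ligand gene hywnt7 had 0 to 10 counts in mock distal libraries and 7 to 252 in mock proximal ones (edgeR adjusted p 0.00996).

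After Zic4 RNAi 2 of the 10 pathway genes were higher than in mock distal parts and 0 were lower, beside 2.32% and 1.33% of all genes. They were the ligand genes hywnt11, with 0 to 5 counts in mock and 14 to 56 after Zic4 RNAi (edgeR adjusted p 0.00224), and hywnt7, with 0 to 10 and 70 to 165 counts (edgeR adjusted p 0.0428). The hywnt7 call was lost in 8 of 16 alternatives, among them those without mock distal replicate 1, 2 or 4 and without Zic4 RNAi distal replicate 2, 3 or 4, at adjusted p up to 0.127. In proximal parts 2 genes were higher and 1 was lower, beside 17.7% and 15.6% of all genes. Bra2, a brachyury transcription factor gene of the Hydra head, rose from 0 to 2.47 CPM in mock to 4.42 to 11.2 CPM (log2 fold change 2.26, edgeR adjusted p 0.00290). hywnt11 rose from 0 to 4 counts to 21 to 28 counts (edgeR adjusted p 0.0348), a call lost in 7 of 16 alternatives, among them those without mock proximal replicate 2, 3 or 4 and without Zic4 RNAi proximal replicate 2 or 4. Wnt3a fell from 7.23 to 25.4 CPM in mock to 0.911 to 4.94 CPM (-2.72, edgeR adjusted p 0.000648). All 3 proximal calls were lost with the complexity covariate, at adjusted p 0.403 to 0.485. Over all genes that covariate left 10 called in proximal parts, against 4766 without it. In the same comparison annexin XII was lower after Zic4 RNAi (-1.94, edgeR adjusted p 0.000790), and Alx and the other cell markers were not called. The summed tentacle markers, mostly annexin XII, were at 3021 to 3965 CPM after Zic4 RNAi and 7152 to 17232 CPM in mock. Alx alone overlapped, at 31.7 to 69.9 CPM after Zic4 RNAi and 56.5 to 94.0 CPM in mock. The part of these markers in the changes was not tested.

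After Sp5 RNAi 0 of the 10 genes were called in distal parts by edgeR, beside 1.69% of all genes higher and 0.600% lower. At an unadjusted p under 0.05 were 4 of the 10, beside 2155 of the 14332 genes tested. In proximal parts 1 was higher and 2 were lower, beside 4.32% and 2.37%. The frizzled receptor gene hyfzd5/8 had 108 to 150 CPM in mock proximal and 261 to 350 CPM in Sp5 RNAi proximal parts, with no overlap (log2 fold change 1.29, standard error 0.23, edgeR adjusted p 0.00200, and 0.164 with the complexity covariate). It was also higher there than after Zic4 RNAi in the same part (1.67, edgeR adjusted p 0.000138), where Zic4 RNAi libraries had 71.3 to 128 CPM. That call was kept in all 15 alternatives. Wnt3a was at 1.30 to 3.16 CPM (-2.96, edgeR adjusted p 0.0106), which was not called without Sp5 RNAi proximal replicate 3 or with the complexity covariate (adjusted p 0.177). Over all genes that covariate left 71 called in proximal parts against mock, and 958 were called without it. The ligand gene hywnt8 was at 18.9 to 25.7 CPM against 30.5 to 69.2 CPM in mock (-1.23, edgeR adjusted p 0.0426), and this call was lost in 10 of 15 alternatives, among them those without mock proximal replicate 2 or 3 and each fit without 1 of the 3 Sp5 RNAi proximal libraries.

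In Sp5 RNAi ectopic tentacles 3 of the 10 pathway genes were higher and 4 were lower than in mock parts, beside 18.9% and 16.8% of all genes. The median of the 10 log2 fold changes was -0.35, against 0.05 over all genes. hywnt11, at 12.4 to 23.6 CPM where no mock part exceeded 1.20 CPM, rose (edgeR adjusted p 1.39e-07), as did Bra2, at 10.96 to 17.3 CPM (edgeR adjusted p 1.01e-05), and Bra1, with 3 to 68 counts where mock parts had 0 to 2 (edgeR adjusted p 0.000951). The Bra1 call was lost without Sp5 RNAi ectopic replicate 3 and with the complexity covariate. Over all genes that covariate left 2718 called in this comparison, against 5111 without it. hyfzd5/8 fell to 57.4 to 81.7 CPM, below every mock and Sp5 RNAi original library of that set (log2 fold change -0.99 against mock, edgeR adjusted p 0.000761, and -1.84 against Sp5 RNAi original parts, edgeR adjusted p 1.91e-06). hywnt8 fell to 19.2 to 23.3 CPM (-1.53, edgeR adjusted p 0.000716, and 0.0531 with the complexity covariate). The other lower genes were hywnt5a (-1.04, edgeR adjusted p 0.00122) and Wnt3a (-2.07, edgeR adjusted p 0.00693, and 0.132 with the complexity covariate). hywnt5a was at 77.1 to 104 CPM in ectopic tentacles. That lay within the mock proximal range (75.1 to 150 CPM) and below the mock distal range (247 to 391 CPM). Against Sp5 RNAi original parts 2 of the 10 genes were higher (hywnt11 and Bra1) and 2 lower (hyfzd5/8 and hywnt5a), beside 13.6% and 13.7% of all genes. For hywnt5a the ectopic range overlapped that of Sp5 RNAi proximal parts (90.9 to 119 CPM) and lay below that of distal parts (278 to 372 CPM).

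Markers of other cells moved with these ectopic changes. All 3 nematocyte markers, both gland cell markers and CnNK-2 were higher than in mock, and both tentacle markers were lower. The gland cell sum was 483 to 814 CPM in Sp5 RNAi ectopic tentacles and at most 312 CPM in mock parts. The nematocyte sum was 23.4 to 362 CPM against 6.83 to 69.2 CPM. CnNK-2 was at 1.98 to 3.05 CPM against 0 to 0.750 CPM. Their part in the changes of the Wnt genes, or in the level of ctnnb1, was not tested.

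In undivided tentacles, original tentacles after Zic4/Sp5 RNAi had 2 of 14 pathway genes higher than mock and 0 lower, beside 2.36% and 2.03% of all genes. These were hywnt9/10c, with 0 counts in every mock library and 7 to 265 counts after Zic4/Sp5 RNAi (edgeR adjusted p 0.0164), and Bra1, with 0 to 2 and 0 to 1421 counts (edgeR adjusted p 0.0458). Both calls were lost with the complexity covariate and whenever 1 of the 3 mock libraries was left out, and that of Bra1 also without Zic4/Sp5 RNAi original replicate 3 or 4. Over all genes that covariate left 55 called in this comparison, against 651 without it. Of the 9 cell markers 0 were called in this comparison by edgeR, with 8 at an unadjusted p under 0.05, among them kazal1 (adjusted p 0.0595) and kazal4 (adjusted p 0.0764). Of the 14826 genes tested, 3348 were at such a p. The gland cell sum was 1.77 to 742 CPM in these tentacles against 1.84 to 5.58 CPM in mock, and the nematocyte sum 19.2 to 427 CPM against 16.4 to 21.7 CPM. Their part in the Wnt and Bra1 values was not tested. In ectopic tentacles 6 of 14 were higher and 1 was lower, beside 15.0% and 15.0% of all genes. The ligand genes hywnt9/10a, hywnt9/10b and hywnt9/10c had 0 counts in all 3 mock libraries and 45 to 308, 13 to 306 and 39 to 134 counts in ectopic ones. Their adjusted p (edgeR) were 0.0309, 0.0239 and 0.00445. Those of hywnt9/10a and hywnt9/10b were above 0.05 whenever 1 of the 3 mock libraries was left out, and that of hywnt9/10a also without Zic4/Sp5 RNAi ectopic replicate 3 or 4.

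The other calls in Zic4/Sp5 RNAi ectopic tentacles were hywnt11, with 4 to 18 counts in mock and 139 to 470 in ectopic tentacles (edgeR adjusted p 0.0416), Bra1, with 0 to 2 and 133 to 744 counts (edgeR adjusted p 0.0156), and Bra2, with 11 to 54 and 134 to 608 counts (edgeR adjusted p 0.0398). All 3 were lost whenever 1 of the 3 mock libraries was left out. hywnt11 was lost also without each of the 4 ectopic libraries, and Bra2 without ectopic replicate 2, 3 or 4. hywnt5a fell from 122 to 177 CPM to 69.4 to 104 CPM (log2 fold change -0.75, edgeR adjusted p 0.0337), and was lost whenever 1 mock library was left out and without ectopic replicate 3 or 4. With the complexity covariate all 7 calls were lost, at adjusted p 0.144 to 0.555. Over all 14826 genes that covariate left 17 called in this comparison, against 4449 without it, so the loss is not particular to these genes. The gland cell sum was 1.84 to 5.58 CPM in mock and 161 to 615 CPM in ectopic tentacles, and the nematocyte sum 16.4 to 21.7 CPM and 98.4 to 691 CPM. Both gland cell markers, 2 of 3 nematocyte markers, CnNK-2 and piwil1 were higher than in mock, and both tentacle markers were lower. Their part in these changes was not tested.

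The remaining comparisons had at most 1 called pathway gene each. Distal against proximal parts had 1 higher and 0 lower after Zic4 RNAi, beside 3.71% and 2.04% of all genes, and 1 higher and 0 lower after Sp5 RNAi, beside 10.6% and 12.1%. The higher gene was hywnt5a in both. After Sp5 RNAi kazal1 (edgeR adjusted p 0.00879), annexin XII (0.00111) and piwil1 (0.0453) were also lower in distal parts, with a gland cell sum of 0.105 to 1.12 CPM against 8.70 to 100.5 CPM, and their part was not tested. Sp5 against Zic4 RNAi proximal parts had 1 higher (hyfzd5/8) and 0 lower, beside 2.53% and 1.14%. In distal parts 0 were called by edgeR, beside 0.167% of all genes higher and 0.147% lower. At an unadjusted p under 0.05 were 3, beside 1580 of the 14332 genes tested. The Zic4 interaction had 0, beside 1.21% and 2.59%, with 3 at an unadjusted p under 0.05, beside 2843 of 14332 genes. The Sp5 interaction had 0, beside 0% and 0.0140%, with 2 at such a p, beside 1313 of 14332 genes. Zic4/Sp5 RNAi ectopic against original tentacles had 0 of 14 called, beside 0% of all genes. At an unadjusted p under 0.05 were hyfzd5/8 (-1.02, unadjusted p 0.00373, edgeR adjusted p 0.0994) and hywnt9/10b, beside 3032 of 14826 genes.

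GSK3, the kinase of the destruction complex (LOC100203080), was called in none of the 16 comparisons by edgeR, with 1 at an unadjusted p under 0.05, and its adjusted p were 0.105 or higher. In mock distal parts it had 60.0 ± 10.2 CPM (SD, n = 4) and in mock proximal parts 44.8 ± 7.51 CPM (SD, n = 4), which gave 0.35 on the log2 scale (standard error 0.22, edgeR adjusted p 0.238). hywnt16 was also called in none of its 16 comparisons by edgeR, with 2 at an unadjusted p under 0.05, and hywnt1 in none of its 3 comparisons in the undivided set, with 2 at such a p.

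**Figure D5:**
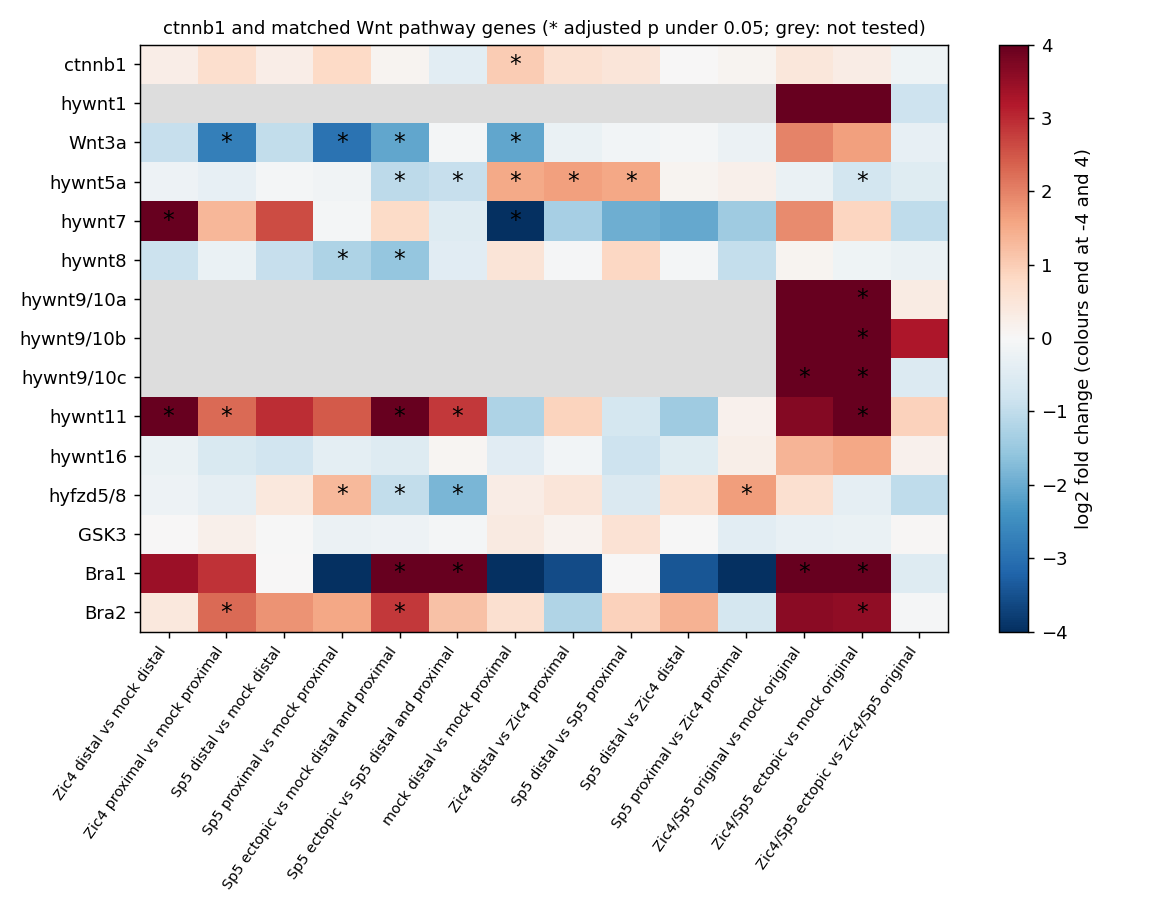
log2 fold change (colour) of ctnnb1 and 14 matched Wnt pathway genes (rows) in 14 comparisons (columns), with an asterisk at an adjusted p under 0.05 and grey where a gene was not tested. Values of genes with few or no counts in an arm, such as Bra1 and the hywnt9/10 genes, depend on the prior count and are not measured folds. The row of ctnnb1 holds 1 asterisk and stays between -0.42 and 1.02.

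The genes most like ctnnb1 over the 25 libraries of the divided set were LOC101241102, LOC100202589, LOC101236593, the gene with identifier 100210079 and LOC100202645, with Pearson correlations of log2 CPM of 0.943, 0.942, 0.934, 0.934 and 0.933. The files do not say what these genes encode. The search covered the 8202 genes that averaged 10 CPM or more, whose median correlation with ctnnb1 was 0.06. The 25 points share library depth, complexity and position in the tentacle, so the correlation is a description. They were chosen for following ctnnb1 over these libraries, so their values in the same libraries are not a separate result. Over the 11 libraries of undivided tentacles, their correlations with ctnnb1 were 0.186, 0.120, 0.289, 0.324 and 0.085, where the median gene was at -0.04. Of the genes compared, 35.9% had an undivided-set correlation above the lowest of these 5. Since the choice used the divided set alone, nothing is read from the difference between the sets.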

How the data were processed

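RNA was measured in 36 libraries of tentacle tissue. Per the labels' protocols, SmartSeq2 was used for cDNA amplification, followed by tagmentation with Tn5. The submitters' processing notes name bcl2fastq and STAR 2.5.0. The counting program, annotation and genome build are not given in the sources used here. The authors deposited whole-number read counts per gene, used as deposited. No coordinates are printed, and names come from a RefSeq gene table of assembly HydraT2T_AEP, which matched 9547 of 22608 identifiers. Reads shared with similar, overlapping or antisense genes could not be separated.

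edgeR 4.0.16 (R 4.3.3) was run on the counts (filterByExpr, TMM, group as the only factor, robust quasi-likelihood F test). The divided set (25 libraries, 14332 genes tested) and the undivided set (11 libraries, 14826 genes) were fitted apart, while CPM levels use TMM factors over all 36 libraries. Alternatives were RLE scaling, DESeq2 1.42.0, no filter, the compared groups alone, 1 fit of all libraries, a replicate block, the share of the 10 most abundant genes as a covariate, each library left out, and, chosen after seeing the data, no scaling factors. No 2 libraries of a group agreed within sampling noise (48 pairs, chi-square per degree of freedom at least 9.34).

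The members, lists and tests were chosen with earlier results of these data known. The naming rule took ctnnb1, the pathway's core partners, up to 2 called list members per comparison and direction with the smallest adjusted p, and the 5 genes most like ctnnb1. Further called members, and hywnt16, were named after their values were seen. Lists that matched no gene were those of nuclear partners, secreted inhibitors, adherens junctions and nerve cells. Same-numbered libraries of Zic4/Sp5 RNAi original and ectopic tentacles deviated together (correlation across genes 0.225 to 0.389). In the other 23 pairs of groups this did not hold for every number. The labels do not say what the numbers mark, and libraries with different numbers were not compared in this way. Over 8 other settings, among them the replicate block, the log2 fold change of ctnnb1 between these ectopic and original tentacles was -0.21 to -0.10. On simulated data of the Zic4 RNAi distal comparison (14048 genes), 30% of 2-fold and 86% of 4-fold changes were recovered. For Zic4/Sp5 RNAi original tentacles (14623 genes) the shares were 13% and 73%. Each simulation changed 100 genes at each fold, chosen above a minimum level, and gave the groups no other difference. The shares therefore need not hold for the real comparisons, where groups differed in complexity and in the share of genes called.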

Additional observations from a re-analysis of the deposited data

Results flagged for a closer look

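No ctnnb1 value stood apart in the 6 groups of 4 libraries. Among 60 groups of 4 libraries (10 genes in 6 groups each), 5 held a library far from the other 3, where chance gives about 1 in 20. hywnt5a was at 173 CPM in Zic4/Sp5 RNAi original replicate 2 and at 103 to 106 CPM in the others. hywnt8 was at 76.9 CPM in Zic4 RNAi proximal replicate 3 and at 31.9 to 34.5 CPM in the others. hyfzd5/8 was at 124 CPM in mock distal replicate 1 and at 170.3 to 179 CPM in the others. hywnt11 was at 0.638 CPM in mock distal replicate 1, and Bra1 at 0.727 CPM in Zic4 RNAi distal replicate 2, with 0 in the other libraries of each group. Any count is flagged in such a group, so the 1 in 20 does not apply there. Groups at 0 throughout, such as Bra1 in mock distal parts, were among the 60 though they could not be flagged.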

How the results depend on the processing

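Of 266 values of ctnnb1 under alternatives, 242 kept their direction and side of the threshold, 16 turned direction, 4 gained and 4 lost a call. The cause was not tested. With the complexity covariate the log2 fold change turned for Zic4 RNAi against mock in distal (-0.090) and proximal parts (-0.46), Sp5 RNAi in distal (-0.055) and proximal parts (-0.041), Sp5 RNAi ectopic tentacles against mock (-0.54) and the Zic4 interaction (0.37), and mock distal against proximal parts lost its call (0.19). That call was also lost with its 8 libraries fitted alone (1.04). Without scaling factors, Zic4 RNAi (1.48) and Sp5 RNAi proximal parts (1.34) gained a call and Sp5 against Zic4 RNAi proximal parts turned (-0.14). Sp5 against Zic4 RNAi distal parts, near 0, turned in a fit of those groups alone (-0.039) and without a filter (-0.0014). Leaving out 1 library gave 0.73 to 1.36 for mock distal against proximal parts, 0.51 to 1.02 and 0.42 to 1.14 for Zic4 and Sp5 RNAi proximal parts, -0.012 to 0.27 for Sp5 RNAi ectopic tentacles against mock, -0.16 to 0.18 and -0.24 to 0.31 for Sp5 against Zic4 RNAi in distal and proximal parts, and -0.31 to 0.033 for Zic4/Sp5 RNAi ectopic against original tentacles. With the replicate block no ctnnb1 call changed, and mock distal against proximal parts was at 1.02 (adjusted p 0.0274).

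The number of genes called over the whole table moved more. Over all alternatives but those without 1 library, it ran from 520 to 6568 around 4221 for mock distal against proximal parts, from 239 to 753 around 522 and from 10 to 6673 around 4766 for Zic4 RNAi in distal and proximal parts, from 180 to 598 around 328 and from 71 to 2195 around 958 for Sp5 RNAi, and from 2718 to 5469 around 5111 for Sp5 RNAi ectopic tentacles against mock. It ran from 356 to 1390 around 825 for Zic4 RNAi distal against proximal parts, from 18 to 240 around 45 and from 99 to 1189 around 526 for Sp5 against Zic4 RNAi, from 0 to 2060 around 545 and from 0 to 22 around 2 for the interactions, and from 55 to 1857 around 651 and from 17 to 6668 around 4449 for Zic4/Sp5 RNAi original and ectopic tentacles. It ran from 0 to 1255 around 0 for Zic4/Sp5 RNAi ectopic against original tentacles. The lowest numbers for mock distal against proximal parts and for Zic4 and Sp5 RNAi proximal parts came with the complexity covariate. So did those for Sp5 RNAi ectopic and for Zic4/Sp5 RNAi original and ectopic tentacles against mock. Leaving out 1 library gave 290 to 604, 103 to 562 and 261 to 1243 for Zic4 RNAi distal, Sp5 RNAi distal and Sp5 RNAi proximal parts against mock, 173 to 1034 and 1193 to 3644 (3255 with all libraries) for distal against proximal parts after Zic4 and Sp5 RNAi, 4 to 128 and 129 to 830 for Sp5 against Zic4 RNAi in distal and proximal parts, 46 to 1470 and 0 to 11 for the interactions, 56 to 1467 and 2297 to 4001 for Zic4/Sp5 RNAi original and ectopic tentacles, and 0 to 2037 for these against each other.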
